A study of Mus musculus with 8 samples.

Results

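The phospholipases A2, C and D are 3 classes of enzyme that cut membrane phospholipids at different bonds. Their genes were taken by symbol, as every gene named Pla2g, Plcb, Plcd, Plce, Plcg, Plch, Plcl, Plcz or Pld with a number, from the probe sets to which the array annotation gave exactly 1 symbol. This gave 40 of the 19938 named genes, each represented by its probe set with the highest mean over the 8 arrays. There were 19 phospholipase A2 genes, 15 phospholipase C genes and 6 phospholipase D genes. RNA of mouse macrophages that had been differentiated in vitro from bone marrow was measured on Affymetrix gene arrays, 1 sample per array. The groups were cells given IFN-gamma and LPS, cells given IL-4 and IL-13, cells given IL-4 and IL-13 with LPS (LPS/IL-4/IL-13, the combined treatment), and untreated cells, with 2 arrays each and a treatment of 6 h. IFN-gamma and LPS drive inflammatory activation, and IL-4 and IL-13 drive alternative activation. The labels used here give no strain, dose or genotype and do not state whether replicate arrays were independent cultures, so the p-values reflect the spread of these samples alone, and that spread may be technical. No group received LPS alone or IFN-gamma alone.

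Phospholipases A2 release a fatty acid from the middle carbon of the glycerol backbone. Arachidonic acid freed in this way, mainly by the cytosolic enzyme encoded by Pla2g4a, feeds the cyclooxygenases and lipoxygenases that make prostaglandins and leukotrienes. Phospholipases C split phosphatidylinositol bisphosphate into inositol trisphosphate, which releases calcium, and diacylglycerol, which activates protein kinase C. In macrophages the gamma class acts downstream of Fc and other immune receptors, and the beta class downstream of G protein-coupled receptors. Phospholipases D 1 and D 2 produce phosphatidic acid, whereas the proteins encoded by Pld3 and Pld4 are endolysosomal exonucleases that belong to the family by sequence.

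Array values ran from 1.46 to 13.71 on a log2 scale, with array medians between 6.12 and 6.20. They came without detection calls, so no level marks a gene as absent, and the number of arrays limits the precision. All 11 measured macrophage markers lay above the median gene, the lowest being Mertk at the 94.6th percentile. Of 8 dendritic cell markers, 1 lay above that median. Their mean level per array was 6.60 to 6.64 under IFN-gamma/LPS, 5.73 to 5.79 under IL-4/IL-13, 6.06 to 6.19 under LPS/IL-4/IL-13 and 5.51 to 5.57 in untreated cells, with 6, 1 and 3 of the 8 called higher than untreated, and their part in the results below was not tested. Of the 8 fibroblast markers 6 lay above the median gene, as did 5 of 10 neutrophil markers and 0 of 8 mast cell and basophil markers. B lymphocyte, T and NK cell and erythroid markers had 1 gene each above it, of 5, 6 and 4. The neutrophil markers averaged 6.47 to 6.55 per array under IFN-gamma/LPS, 6.50 under IL-4/IL-13, 6.84 to 6.85 under LPS/IL-4/IL-13 and 6.49 to 6.52 in untreated cells, with 1, 1 and 4 of the 10 called higher and 3, 1 and 2 called lower. Of the 11 macrophage markers 3, 1 and 4 were called higher and 7, 5 and 6 lower in the 3 treatments, and the part of these markers was not tested either. In these cultures fewer cells of a type and less RNA per cell cannot be told apart.

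Under IFN-gamma/LPS, 9 phospholipase genes rose, led by Pla2g4a and Plcl2, and 11 fell. The genes of phospholipases C gamma, C beta 2 and D 1 to D 4 fell, Pld2 by the brighter of its disagreeing probe sets. Pla2g15, Pla2g6, Pla2g7 and Plcb4 fell as well. A gene was said to have risen or fallen where its adjusted p in limma, over all 19938 named genes, was under 0.05. On that basis 9 of the 40 members rose and 11 fell under IFN-gamma/LPS, and the background over all named genes was 51.9% in either direction, 23.6% higher and 28.4% lower. Under IL-4/IL-13, 8 members rose and 7 fell, against a background of 20.2% in either direction, 7.83% higher and 12.3% lower. Without untreated array 1 that total of 15 was 9. Under LPS/IL-4/IL-13, 9 rose and 11 fell, with 45.6% of all named genes called, 20.3% higher and 25.4% lower. The members' median log2 change was 0.18, 0.15 and 0.18 in these comparisons, against 0.10, 0.07 and 0.09 for all named genes. All comparisons with untreated cells share the same untreated arrays.

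The 16 members at or below the 40th percentile of mean signal, a level of 5.91, gave few calls. Under IFN-gamma/LPS 3 of these 16 were called, or 18.8%, against 24.4% of all genes that dim. Of the 24 brighter members 17 were called, or 70.8%, against 70.3% of all bright genes. Under IL-4/IL-13 the brighter members gave 13 calls, or 54.2%, against 29.8% of all bright genes, and under LPS/IL-4/IL-13 they gave 17, or 70.8%, against 63.7%. Changes of at least 2-fold were called for 2 members upward and 7 downward under IFN-gamma/LPS, where 5.86% and 11.2% of all named genes passed that limit, 17.1% in all. The same limit was passed by 0 members upward and 1 downward under IL-4/IL-13 (1.07% and 1.38% of all named genes, 2.45% in all), and by 2 upward and 5 downward under LPS/IL-4/IL-13 (5.18% and 8.72%, 13.9% in all). The dim members' median log2 change was 0.26 under IFN-gamma/LPS, 0.21 under IL-4/IL-13 and 0.24 under LPS/IL-4/IL-13. For all dim genes it was 0.18, 0.14 and 0.16, so small rises were common among them. Of all dim genes 19.3% were called higher and 5.11% lower under IFN-gamma/LPS. Over the 8 arrays, 14 members spanned less than 0.5 on the log2 scale and 11 spanned at least 1.

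**Figure D1:**
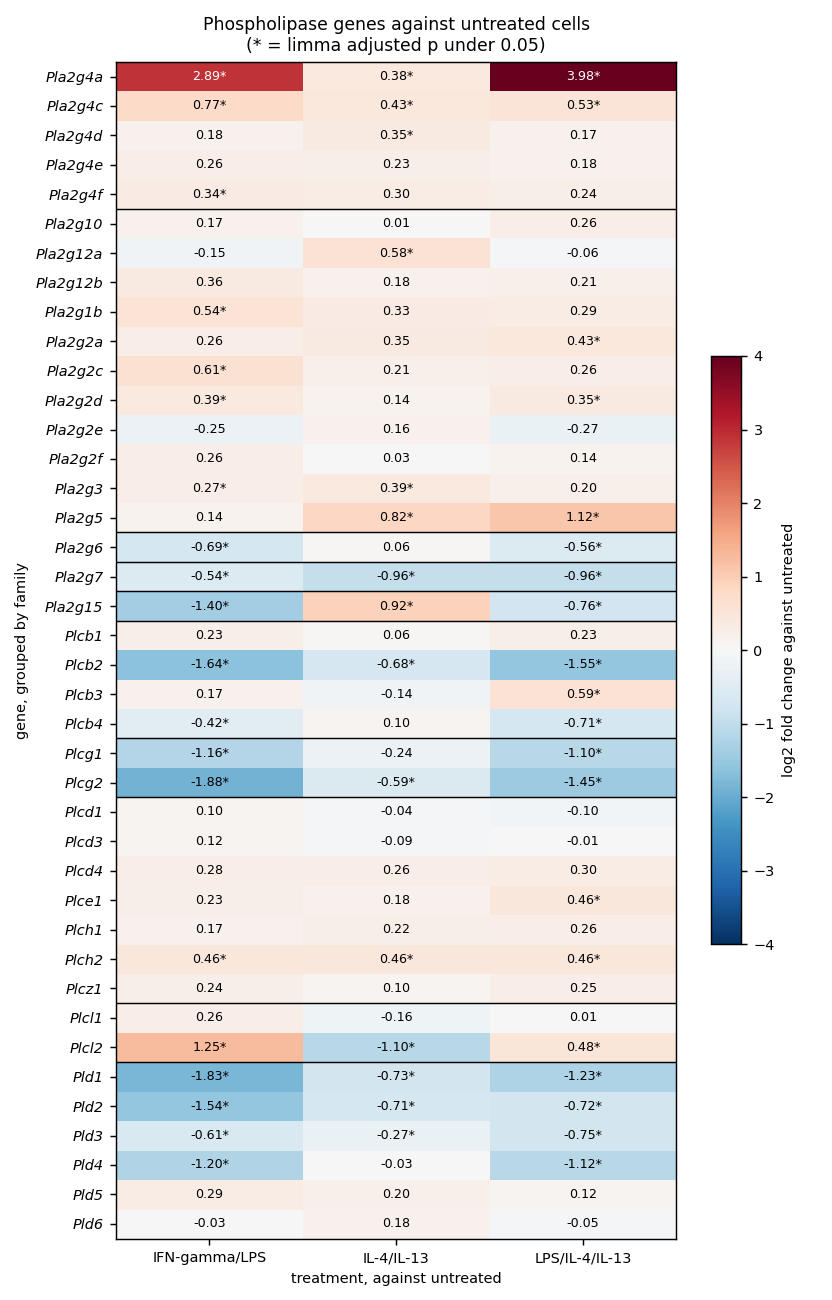
Log2 fold change of the 40 phospholipase genes (rows, by family) under each treatment against untreated cells (columns), with an asterisk where limma's adjusted p was under 0.05. Pla2g4a had the strongest red, at 2.89 under IFN-gamma/LPS and 3.98 under LPS/IL-4/IL-13, and Pld1 to Pld4 were blue in both of these columns.

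Pla2g4a, which encodes cytosolic phospholipase A2 alpha, the arachidonate-releasing enzyme, changed more than any other member. Its log2 signal was 10.65 and 10.47 on the IFN-gamma/LPS arrays, 8.18 and 7.92 on the IL-4/IL-13 arrays, 11.81 and 11.48 on the LPS/IL-4/IL-13 arrays, and 7.68 and 7.66 on the untreated arrays. The 4 groups did not overlap, and the combined treatment was highest. It rose 7.41-fold under IFN-gamma/LPS (log2 2.89 ± 0.12 SE, n = 2 arrays per group, limma adjusted p = 1.28e-09) and 15.7-fold under LPS/IL-4/IL-13 (3.98 ± 0.12, limma adjusted p = 1.03e-10). The rise under IL-4/IL-13 was 1.30-fold (0.38 ± 0.12, limma adjusted p = 0.0463) and rested on single arrays. The call was lost without untreated array 1 (0.39), without untreated array 2 (0.37), without IL-4/IL-13 array 1 (0.25) after median centring (0.34) and without the variance trend (0.38).

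The combined treatment exceeded each of the others in Pla2g4a. It was 2.12-fold above IFN-gamma/LPS (log2 1.08 ± 0.12, limma adjusted p = 4.15e-05) and 12.1-fold above IL-4/IL-13 (3.60 ± 0.12, limma adjusted p = 3.17e-10). IFN-gamma/LPS was 5.70-fold above IL-4/IL-13 (2.51 ± 0.12, limma adjusted p = 4.73e-09). In the RefSeq gene table of GRCm38.p6, the protein-coding neighbours of Pla2g4a on chromosome 1 are Brinp3 and Ptgs2, the inducible cyclooxygenase gene whose product uses the arachidonate that cytosolic phospholipase A2 alpha releases.

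The other cytosolic phospholipase A2 genes, Pla2g4c to Pla2g4f, were dim and moved little. All dim genes had median changes of 0.18 under IFN-gamma/LPS, 0.14 under IL-4/IL-13 and 0.16 under LPS/IL-4/IL-13. Pla2g4c, whose enzyme needs no calcium, had 5.46 and 5.30 under IFN-gamma/LPS, 5.06 and 5.02 under IL-4/IL-13, 5.06 and 5.23 under LPS/IL-4/IL-13, and 4.65 and 4.57 in untreated cells. Each treated array lay above both untreated arrays. It rose by 0.77 ± 0.12 under IFN-gamma/LPS (limma adjusted p = 0.000145) and 0.53 ± 0.12 under LPS/IL-4/IL-13 (limma adjusted p = 0.00272). Its rise of 0.43 under IL-4/IL-13 was lost without either untreated array (0.47 without array 1 and 0.39 without array 2) and without either IL-4/IL-13 array (0.41 and 0.45). Pla2g4d under IL-4/IL-13 (0.35) and Pla2g4f under IFN-gamma/LPS (0.34) passed with adjusted p of 0.0478 and 0.0309. Pla2g4d lost its call in 7 of the 8 fits that left out 1 array, where its values were 0.26 to 0.35. It was also lost after quantile normalization (0.27), after median centring (0.32) and with the replicate number as a block (0.35). Pla2g4f lost its call without each of the untreated and IFN-gamma/LPS arrays, at 0.29 to 0.38, and after quantile normalization (0.23). Pla2g4e was called in none of the 6 comparisons.

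Among the 11 secreted phospholipase A2 genes, Pla2g5 rose in both groups that received IL-4 and IL-13. This gene encodes group V phospholipase A2, a secreted enzyme also active on phagosomes of mouse macrophages. Log2 signals were 6.13 and 6.04 under IFN-gamma/LPS, 6.93 and 6.59 under IL-4/IL-13, 7.10 and 7.03 under LPS/IL-4/IL-13, and 5.88 and 6.01 in untreated cells. Every array with IL-4 and IL-13 lay above every array without them. It rose 1.76-fold under IL-4/IL-13 (log2 0.82 ± 0.13, limma adjusted p = 0.000594) and 2.17-fold under LPS/IL-4/IL-13 (1.12 ± 0.13, limma adjusted p = 1.06e-05). Under IFN-gamma/LPS the difference from untreated was 0.14 ± 0.13 (limma adjusted p = 0.364). Pla2g5 was 1.97-fold higher under LPS/IL-4/IL-13 than under IFN-gamma/LPS (0.98 ± 0.13, limma adjusted p = 0.000122). The difference between LPS/IL-4/IL-13 and IL-4/IL-13 was 0.30 and did not pass (limma adjusted p = 0.0809). It passed after quantile normalization (0.42), after median centring (0.35), among bright genes only (0.30) and without IL-4/IL-13 array 1 (0.47).

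Pla2g12a, a secreted phospholipase A2 gene of widespread expression, was high in the IL-4/IL-13 group. Its arrays read 6.51 and 6.37 under IFN-gamma/LPS, 7.09 and 7.26 under IL-4/IL-13, 6.52 and 6.54 under LPS/IL-4/IL-13, and 6.56 and 6.62 in untreated cells. The IL-4/IL-13 arrays stood above all the others. The rise against untreated was 0.58 ± 0.11 (limma adjusted p = 0.00206), and Pla2g12a was lower by -0.65 ± 0.11 under LPS/IL-4/IL-13 and by -0.73 ± 0.11 under IFN-gamma/LPS than under IL-4/IL-13. The differences of LPS/IL-4/IL-13 and of IFN-gamma/LPS from untreated cells did not pass.

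Of the other secreted enzymes, Pla2g1b, the pancreatic type, rose by 0.54 ± 0.12 under IFN-gamma/LPS (limma adjusted p = 0.0024), and Pla2g2c rose by 0.61 ± 0.13 (limma adjusted p = 0.0021). Both calls held in each fit that left out 1 array. Pla2g2d passed under IFN-gamma/LPS (0.39), but not without untreated array 1 (0.31) or IFN-gamma/LPS array 1 (0.33). It also passed under LPS/IL-4/IL-13 (0.35), but not without untreated array 1 (0.27), untreated array 2 (0.42) or LPS/IL-4/IL-13 array 1 (0.28). Pla2g3 passed under IFN-gamma/LPS (0.27) and IL-4/IL-13 (0.39) and was lost in 6 and 4 of the 8 fits that left out 1 array, at values of 0.22 to 0.33 and 0.34 to 0.44. Both calls were also lost after quantile normalization (0.23 and 0.33). The IFN-gamma/LPS call was lost as well after median centring (0.27) and in a fit of the 4 arrays compared (0.27). Pla2g2a passed under LPS/IL-4/IL-13 (0.43), but not without LPS/IL-4/IL-13 array 2 (0.40). RefSeq annotates mouse Pla2g2a as a transcribed pseudogene that lies within the span of Pla2g5, so its signal is uncertain. Pla2g2c, Pla2g2f, Pla2g2d, Pla2g5, Pla2g2a and Pla2g2e form a run of 6 genes on chromosome 4, of which Pla2g5 alone passed at 2-fold or more in any of the 6 comparisons. Pla2g10, Pla2g12b and Pla2g2f passed in none of the 6 comparisons.

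The lysosomal enzyme gene Pla2g15, whose product degrades phospholipids in acidic compartments, moved in opposite directions in the treatments. It read 9.68 and 9.79 under IFN-gamma/LPS, 12.02 and 12.07 under IL-4/IL-13, 10.41 and 10.33 under LPS/IL-4/IL-13, and 11.23 and 11.03 in untreated cells. The groups did not overlap, with IL-4/IL-13 above and both LPS groups below untreated cells. Pla2g15 fell 2.63-fold under IFN-gamma/LPS (log2 -1.40 ± 0.08, limma adjusted p = 2.29e-08) and rose 1.89-fold under IL-4/IL-13 (0.92 ± 0.08, limma adjusted p = 7.49e-06). Under LPS/IL-4/IL-13 it fell 1.69-fold (-0.76 ± 0.08, limma adjusted p = 7.11e-06). The direct comparison put LPS/IL-4/IL-13 1.55-fold above IFN-gamma/LPS (0.64, limma adjusted p = 0.000124) and 3.19-fold below IL-4/IL-13 (-1.68, limma adjusted p = 6.59e-09). IFN-gamma/LPS lay 4.96-fold below IL-4/IL-13 (-2.31, limma adjusted p = 2.79e-10).

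Pla2g6 encodes the calcium-independent enzyme of membrane remodelling, and it was lower in both groups with LPS. Arrays read 6.55 and 6.61 under IFN-gamma/LPS, 7.34 and 7.31 under IL-4/IL-13, 6.62 and 6.80 under LPS/IL-4/IL-13, and 7.22 and 7.31 in untreated cells. Both LPS groups lay below the other arrays. Pla2g6 fell by 0.69 ± 0.10 on the log2 scale under IFN-gamma/LPS (limma adjusted p = 0.000127) and by 0.56 ± 0.10 under LPS/IL-4/IL-13 (limma adjusted p = 0.0008), and the difference under IL-4/IL-13 was 0.06 (limma adjusted p = 0.715). Pla2g7 encodes the secreted enzyme that inactivates platelet-activating factor. It read 10.73 and 10.47 under IFN-gamma/LPS, 10.22 and 10.14 under IL-4/IL-13, 10.25 and 10.11 under LPS/IL-4/IL-13, and 11.14 and 11.15 in untreated cells. All treated arrays lay below the untreated ones. The fall was 0.54 ± 0.09 under IFN-gamma/LPS (limma adjusted p = 0.000287), and the log2 change was -0.96 ± 0.09 under IL-4/IL-13 (limma adjusted p = 1.29e-05) and also -0.96 ± 0.09 under the combined treatment (limma adjusted p = 2.45e-06).

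**Figure D2:**
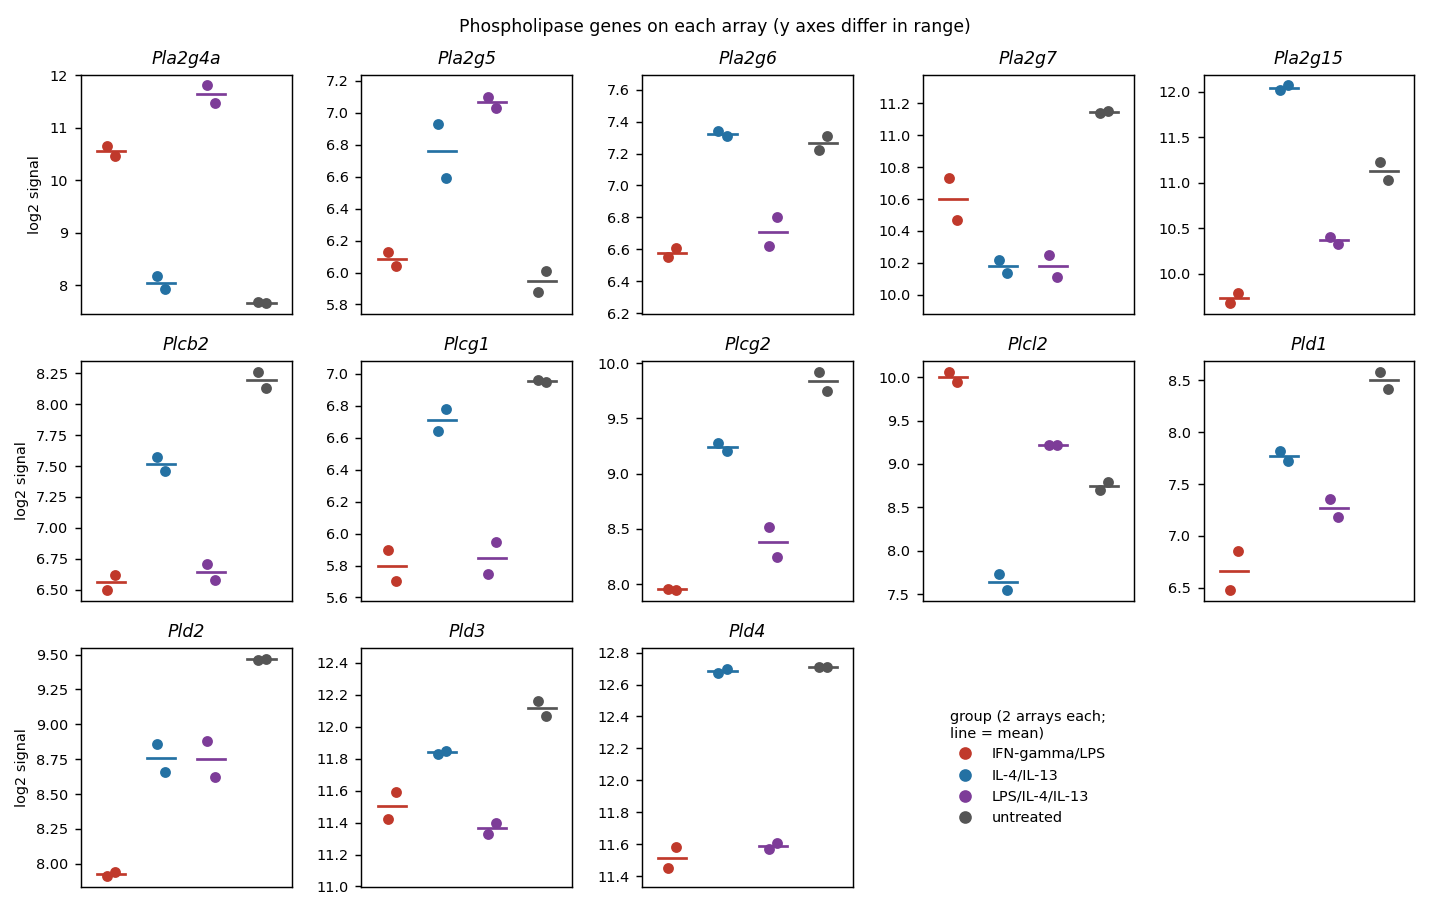
Log2 signal of 13 phospholipase genes on each of the 8 arrays, by group; each panel has its own range on the y axis. Pla2g4a runs from 7.66 on an untreated array to 11.81 on an LPS/IL-4/IL-13 array, and Pla2g15 is highest under IL-4/IL-13.

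In the phospholipase C class, the gamma enzymes fell under both treatments with LPS. Plcg2 encodes phospholipase C gamma 2, the form that immune receptors use in myeloid cells and B cells. It read 7.96 and 7.95 under IFN-gamma/LPS, 9.28 and 9.21 under IL-4/IL-13, 8.52 and 8.25 under LPS/IL-4/IL-13, and 9.92 and 9.75 in untreated cells. The groups did not overlap, and untreated cells were highest. Plcg2 fell 3.68-fold under IFN-gamma/LPS (log2 -1.88 ± 0.11, limma adjusted p = 1.69e-08), 2.73-fold under LPS/IL-4/IL-13 (-1.45 ± 0.11, limma adjusted p = 2.26e-07) and by 0.59 ± 0.11 on the log2 scale under IL-4/IL-13 (limma adjusted p = 0.00183). Plcg1, the more widely expressed gamma form, read 5.90 and 5.70 under IFN-gamma/LPS, 6.64 and 6.78 under IL-4/IL-13, 5.75 and 5.95 under LPS/IL-4/IL-13, and 6.96 and 6.95 in untreated cells. Both LPS groups lay below the remaining arrays. Plcg1 fell 2.23-fold under IFN-gamma/LPS (-1.16 ± 0.12, limma adjusted p = 3.69e-06) and 2.15-fold under LPS/IL-4/IL-13 (-1.10 ± 0.12, limma adjusted p = 6.83e-06). Under IL-4/IL-13 its difference was -0.24 (limma adjusted p = 0.168).

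The beta class did not move as one. Plcb2, a form found mainly in blood cells and activated by G protein beta-gamma subunits, read 6.50 and 6.62 under IFN-gamma/LPS, 7.57 and 7.46 under IL-4/IL-13, 6.71 and 6.58 under LPS/IL-4/IL-13, and 8.26 and 8.13 in untreated cells. Every treated array lay below the untreated arrays, and those with LPS were lowest. It fell 3.11-fold under IFN-gamma/LPS (log2 -1.64 ± 0.11, limma adjusted p = 6.23e-08), 2.93-fold under LPS/IL-4/IL-13 (-1.55 ± 0.11, limma adjusted p = 1.25e-07) and by 0.68 ± 0.11 under IL-4/IL-13 (limma adjusted p = 0.000669). Plcb3, a widely expressed form, read 8.96 and 9.10 under IFN-gamma/LPS, 8.67 and 8.77 under IL-4/IL-13, 9.43 and 9.46 under LPS/IL-4/IL-13, and 8.94 and 8.78 in untreated cells. The LPS/IL-4/IL-13 arrays stood above all others. Plcb3 rose by 0.59 ± 0.09 there (limma adjusted p = 0.00023) and was 0.72 above IL-4/IL-13 (limma adjusted p = 4.49e-05). It was also 0.42 above IFN-gamma/LPS (limma adjusted p = 0.00724), a call that was lost without IFN-gamma/LPS array 1 (0.34). Plcb4 fell under LPS/IL-4/IL-13 (-0.71 ± 0.13, limma adjusted p = 0.000596). Its fall under IFN-gamma/LPS (-0.42) was lost without untreated array 2 (-0.31) or IFN-gamma/LPS array 1 (-0.27). Plcb1 passed in none of the 6 comparisons.

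Of the 7 genes of the delta, epsilon, eta and zeta classes, Plch2, a form best known from neurons, and Plce1, a Ras-regulated form, were the ones called. Plch2 was higher by 0.46 ± 0.11 in each treatment, with arrays between 6.51 and 6.67 in treated cells and at 6.04 and 6.22 in untreated cells. Without untreated array 1 that difference was 0.37 in each treatment and no longer passed, and under IL-4/IL-13 it was also lost without IL-4/IL-13 array 2 (0.38). Plce1 passed under LPS/IL-4/IL-13 (0.46), but not without untreated array 2 (0.38) or LPS/IL-4/IL-13 array 2 (0.44). Plcd1, Plcd3, Plcd4, Plch1 and Plcz1, the sperm form, passed in none of the 6 comparisons.

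Plcl2, which encodes a phospholipase C-like protein that lacks catalytic activity, rose with IFN-gamma/LPS and fell with IL-4/IL-13. The arrays read 10.06 and 9.94 under IFN-gamma/LPS, 7.73 and 7.55 under IL-4/IL-13, 9.22 and 9.22 under LPS/IL-4/IL-13, and 8.70 and 8.79 in untreated cells. No groups overlapped, and the combined treatment lay between IFN-gamma/LPS and untreated cells. Plcl2 rose 2.39-fold under IFN-gamma/LPS (log2 1.25 ± 0.09, limma adjusted p = 2.36e-07), fell 2.15-fold under IL-4/IL-13 (-1.10 ± 0.09, limma adjusted p = 5.48e-06) and rose by 0.48 ± 0.09 under LPS/IL-4/IL-13 (limma adjusted p = 0.00122). IFN-gamma/LPS was 5.13-fold above IL-4/IL-13 (2.36, limma adjusted p = 8.46e-10). LPS/IL-4/IL-13 was 2.99-fold above IL-4/IL-13 (1.58, limma adjusted p = 4.4e-08) and lower than IFN-gamma/LPS (-0.78, limma adjusted p = 7.85e-05). Plcl1, its relative, passed in a single comparison, IFN-gamma/LPS relative to IL-4/IL-13 (0.42).

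Of the 6 phospholipase D genes, 4 fell under IFN-gamma/LPS, 3 under IL-4/IL-13 and 4 under LPS/IL-4/IL-13, and 0 rose. Those that fell, Pld1 to Pld4, were among the brighter genes, of which 43.9%, 19.2% and 38.9% were called lower in these comparisons. Pld1 encodes a membrane enzyme that small GTPases such as Arf proteins activate. It read 6.48 and 6.85 under IFN-gamma/LPS, 7.82 and 7.72 under IL-4/IL-13, 7.36 and 7.18 under LPS/IL-4/IL-13, and 8.58 and 8.42 in untreated cells. The groups did not overlap, and IFN-gamma/LPS was lowest. Pld1 fell 3.57-fold under IFN-gamma/LPS (log2 -1.83 ± 0.13, limma adjusted p = 1.48e-07), 2.35-fold under LPS/IL-4/IL-13 (-1.23 ± 0.13, limma adjusted p = 6.95e-06) and by 0.73 ± 0.13 under IL-4/IL-13 (limma adjusted p = 0.00184).

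Pld2 encodes the second classical phospholipase D, found mainly at the plasma membrane. Its brightest probe set read 7.91 and 7.94 under IFN-gamma/LPS, 8.86 and 8.66 under IL-4/IL-13, 8.88 and 8.62 under LPS/IL-4/IL-13, and 9.46 and 9.47 in untreated cells. All treated arrays lay below the untreated ones. By that probe set Pld2 fell 2.91-fold under IFN-gamma/LPS (log2 -1.54 ± 0.11, limma adjusted p = 1.15e-07), by 0.71 ± 0.11 under IL-4/IL-13 (limma adjusted p = 0.000549) and by 0.72 ± 0.11 under LPS/IL-4/IL-13 (limma adjusted p = 0.000133). The probe sets of Pld2 disagreed, since the other one had group means of 7.75 under IFN-gamma/LPS, 7.73 under IL-4/IL-13, 7.73 under LPS/IL-4/IL-13 and 7.74 in untreated cells. With both probe sets averaged, the changes against untreated were -0.76, -0.36 and -0.36 in these treatments.

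Pld3 and Pld4 encode endolysosomal enzymes that degrade single-stranded nucleic acids and so limit Toll-like receptor signals. Pld3 read 11.42 and 11.59 under IFN-gamma/LPS, 11.83 and 11.85 under IL-4/IL-13, 11.33 and 11.40 under LPS/IL-4/IL-13, and 12.16 and 12.07 in untreated cells. All treated arrays were below the untreated ones. Pld3 fell by 0.61 ± 0.07 under IFN-gamma/LPS (limma adjusted p = 1.04e-05) and by 0.75 ± 0.07 under LPS/IL-4/IL-13 (limma adjusted p = 2.01e-06). Its fall under IL-4/IL-13 (-0.27, limma adjusted p = 0.0154) was lost after quantile normalization (-0.20), without the variance trend (-0.27), without untreated array 1 (-0.23) and without IL-4/IL-13 array 1 (-0.26) or 2 (-0.28). Pld4 read 11.45 and 11.58 under IFN-gamma/LPS, 12.67 and 12.70 under IL-4/IL-13, 11.57 and 11.61 under LPS/IL-4/IL-13, and 12.71 and 12.71 in untreated cells. The LPS groups lay more than 1 log2 unit below the others. Pld4 fell 2.29-fold under IFN-gamma/LPS (-1.20 ± 0.06, limma adjusted p = 5.05e-09) and 2.17-fold under LPS/IL-4/IL-13 (-1.12 ± 0.06, limma adjusted p = 1.16e-08), while its difference under IL-4/IL-13 was -0.03 (limma adjusted p = 0.793). Pld5, which has no known catalytic activity, and Pld6, a mitochondrial enzyme needed for piRNA production, passed in none of the 6 comparisons.

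The promoters of the members with the largest called changes against untreated cells are given for 3 genes, Pla2g4a, which rose, and Plcg2 and Pld1, which fell. RefSeq promoter sequences of GRCm38.p6, from 250 bases before to 50 bases after a start site, were held for 36 of the 40 members, in 47 entries. They were searched on both strands for 5 patterns. These were the NF-kB pattern (GGGA and CC with any 4 bases between them), the STAT6 pattern (TTC and GAA with any 4 bases between), the interferon response pattern (GAAA and GAAA with any 2 bases between), the C/EBP pattern (TTGCNNAAT) and the AP-1 pattern (TGANTCA), where N is any base. Matches stand in capitals.
Pla2g4a, chr1:149961241-149961540, minus strand: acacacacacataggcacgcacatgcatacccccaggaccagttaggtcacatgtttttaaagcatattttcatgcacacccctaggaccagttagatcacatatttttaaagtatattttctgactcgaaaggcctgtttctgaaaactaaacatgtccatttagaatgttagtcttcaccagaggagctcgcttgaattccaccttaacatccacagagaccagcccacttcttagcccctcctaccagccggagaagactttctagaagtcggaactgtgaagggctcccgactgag
Plcg2, chr8:117498025-117498324, plus strand: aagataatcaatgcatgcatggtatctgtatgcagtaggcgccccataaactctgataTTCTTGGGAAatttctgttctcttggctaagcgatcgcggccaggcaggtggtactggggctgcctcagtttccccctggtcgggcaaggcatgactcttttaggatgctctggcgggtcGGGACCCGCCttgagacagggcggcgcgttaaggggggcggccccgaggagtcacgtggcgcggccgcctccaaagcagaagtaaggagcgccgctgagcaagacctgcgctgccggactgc
Pld1, chr3:27938430-27938729, plus strand: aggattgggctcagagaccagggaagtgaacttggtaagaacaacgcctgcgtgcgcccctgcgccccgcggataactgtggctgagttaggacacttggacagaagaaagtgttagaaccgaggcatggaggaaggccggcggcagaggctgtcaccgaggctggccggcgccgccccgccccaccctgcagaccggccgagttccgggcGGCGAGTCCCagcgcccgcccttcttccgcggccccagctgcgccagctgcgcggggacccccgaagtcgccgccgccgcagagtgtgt
The Pla2g4a sequence, the first of 2 entries, matched none of them. Plcg2 held the NF-kB pattern at 72 bases and the STAT6 pattern at 192 bases before the start site. The first of 2 Pld1 entries held the NF-kB pattern at 39 bases before the start. Plcb2 and Pld2, next by size of change, also fell, and their sequences are not printed. Plcb2 matched none of the patterns, and neither did the first of 2 Pld2 entries. The second Pld2 entry held the NF-kB pattern at 52 bases before the start. The NF-kB pattern was present in 13 of the 47 entries (27.7%) and in 20.7% of all 32851 promoters. The others were present in 2 (STAT6), 3 (interferon response), 2 (C/EBP) and 4 (AP-1) of the 47 entries, and in 6.95%, 3.44%, 2.40% and 7.81% of all promoters. A match is a description of the sequence and not a binding site.

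The combined treatment was then set against each other treatment. Against IFN-gamma/LPS, 7 of the 40 members were higher and 2 lower under LPS/IL-4/IL-13, where 19.7% of all named genes were called, 12.1% higher and 7.62% lower. At least 2-fold higher was 1 member, Pla2g4a, and 0 were 2-fold lower, where 3.32% of all named genes passed that limit, 1.68% higher and 1.64% lower. Pla2g4a (1.08), Pla2g5 (0.98), Pld2 (0.82) and Pla2g15 (0.64) were the largest increases, and Plcl2 (-0.78) the largest decrease. The increase of Pld2 was measured with the brighter of its 2 disagreeing probe sets. Pld1 was higher (0.60, limma adjusted p = 0.00562), but not without IFN-gamma/LPS array 1 (0.42). Pla2g7 was lower (-0.42, limma adjusted p = 0.00581), but not without IFN-gamma/LPS array 1 (-0.29) or in a fit of the 4 arrays compared (-0.42). Plcg2 was higher (0.43, limma adjusted p = 0.0121), but not without IFN-gamma/LPS array 1 (0.43), without LPS/IL-4/IL-13 array 1 (0.30) or in the fit of 4 arrays (0.43). Plcb2 (0.09, limma adjusted p = 0.713), Plcg1 (0.05, limma adjusted p = 0.867) and Pld4 (0.07, limma adjusted p = 0.498) did not pass.

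Against IL-4/IL-13, 3 members were higher and 11 lower under LPS/IL-4/IL-13, with a background of 36.7% called, 14.1% higher and 22.6% lower. Of these, 2 were at least 2-fold higher and 2 at least 2-fold lower, a limit that 11.2% of all named genes passed, 5.35% higher and 5.83% lower. The 3 higher members were Pla2g4a (3.60), Plcl2 (1.58) and Plcb3 (0.72). Pla2g15 (-1.68) and Pld4 (-1.09, limma adjusted p = 1.68e-08) were at least 2-fold lower. Plcb2 (-0.87), Plcg1 (-0.86), Plcg2 (-0.86), Plcb4 (-0.82), Pla2g12a (-0.65), Pla2g6 (-0.62) and Pld3 (-0.48) were lower by less. Pld1 was also lower (-0.50, limma adjusted p = 0.00877), though not after quantile normalization (-0.36), without IL-4/IL-13 array 1 (-0.45) or without LPS/IL-4/IL-13 array 2 (-0.41). Pla2g2e, a secreted enzyme gene, was lower (-0.43, limma adjusted p = 0.0139), though not without IL-4/IL-13 array 1 (-0.36) or LPS/IL-4/IL-13 array 1 (-0.27). Pla2g7 (0.00) and Pld2 (-0.01) did not pass.

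Relative to IL-4/IL-13, IFN-gamma/LPS had 7 members higher and 13 lower, where 41.6% of all named genes were called, 15.5% higher and 26.1% lower. The 2-fold limit was passed by 2 upward and 4 downward, and by 15.2% of all named genes, 6.32% higher and 8.86% lower. Pla2g4a (2.51) and Plcl2 (2.36) were higher by more than 2-fold. Pla2g15 (-2.31), Plcg2 (-1.29, limma adjusted p = 5.83e-07), Pld4 (-1.17, limma adjusted p = 6.66e-09) and Pld1 (-1.10, limma adjusted p = 1.6e-05) were lower by more than 2-fold. Plcb2 (-0.96), Plcg1 (-0.91) and, by the brighter of its disagreeing probe sets, Pld2 (-0.83) were lower by less than 2-fold. The same held for Pla2g6 (-0.74), Pla2g12a (-0.73), Pla2g5 (-0.68) and Pld3 (-0.33), while Pla2g7 (0.42) and Plcl1 (0.42) were higher. The 5 calls that remain each rested on single arrays. Plcb4 (-0.53) was lost without IFN-gamma/LPS array 1 (-0.37), and Pla2g2e (-0.41) without IFN-gamma/LPS array 2 (-0.39) or IL-4/IL-13 array 1 (-0.34). Plcb3 (0.31) was lost without IFN-gamma/LPS array 2 (0.24) or IL-4/IL-13 array 1 (0.26), and Pla2g2c (0.40) without IFN-gamma/LPS array 2 (0.23), IL-4/IL-13 array 1 (0.45) or IL-4/IL-13 array 2 (0.35). Pla2g4c (0.34) was lost in 5 of the 8 fits that left out 1 array, at values of 0.26 to 0.36, namely those without an untreated array, without an IL-4/IL-13 array or without IFN-gamma/LPS array 1. It was also lost in a fit of the 4 arrays compared (0.34).

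**Figure D3:**
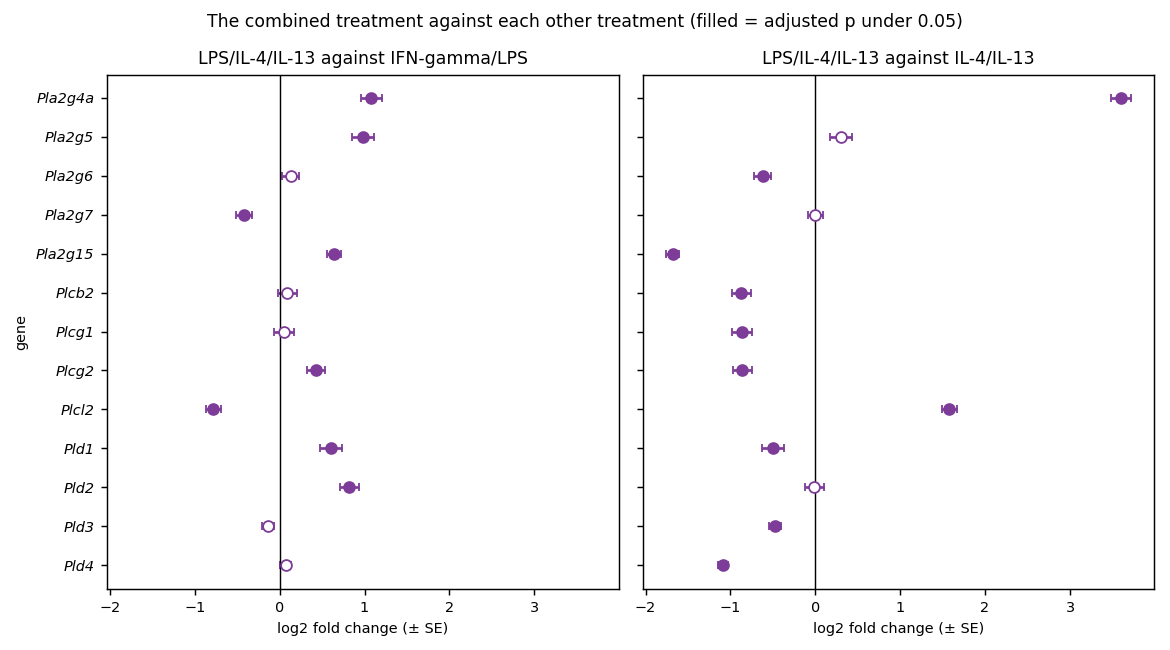
Log2 fold change with its SE for phospholipase genes under the combined treatment, relative to IFN-gamma/LPS and to IL-4/IL-13, filled where limma's adjusted p was under 0.05. Pla2g4a lies to the right of 0 in both panels, at 1.08 and 3.60, while Pla2g15 is at 0.64 in one and -1.68 in the other.

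Genes that act on the products of phospholipase A2 changed in both directions. The calls in the gene lists that follow stand beside those of all named genes above, and beside those of all genes brighter than the 40th percentile. Of these bright genes 26.4% rose and 43.9% fell under IFN-gamma/LPS, 10.6% rose and 19.2% fell under IL-4/IL-13, and 24.7% rose and 38.9% fell under LPS/IL-4/IL-13. Of 16 measured genes of eicosanoid synthesis, 11 of which lay above the median gene, 6 rose and 7 fell under IFN-gamma/LPS, 2 rose and 5 fell under IL-4/IL-13, and 3 rose and 7 fell under LPS/IL-4/IL-13. The median of this list was 0.03, 0.04 and 0.08, against 0.10, 0.07 and 0.09 for all named genes. Ptgs2 read 13.30 and 13.30 under IFN-gamma/LPS, 7.51 and 7.36 under IL-4/IL-13, 13.20 and 13.20 under LPS/IL-4/IL-13, and 6.80 and 7.05 in untreated cells. It rose by 6.38 ± 0.09 under IFN-gamma/LPS, by 0.51 ± 0.09 under IL-4/IL-13 and by 6.28 ± 0.09 under LPS/IL-4/IL-13. Between the combined treatment and IFN-gamma/LPS it differed by -0.10 (limma adjusted p = 0.579), and both levels lay near 13.71, the highest value in the table.

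Ptges, the prostaglandin E synthase gene that works with Ptgs2, read 9.69 and 9.31 under IFN-gamma/LPS, 5.44 and 5.74 under IL-4/IL-13, 11.09 and 11.16 under LPS/IL-4/IL-13, and 5.99 and 5.78 in untreated cells. The combined treatment was highest, and the IL-4/IL-13 and untreated arrays were lowest. Ptges rose by 3.62 ± 0.14 under IFN-gamma/LPS and by 5.24 ± 0.14 under LPS/IL-4/IL-13, and the combined treatment exceeded IFN-gamma/LPS by 1.62 (limma adjusted p = 4.77e-06). Hpgd, which encodes the enzyme that inactivates prostaglandins, fell under IFN-gamma/LPS (-3.10 ± 0.08), the combined treatment (-2.65 ± 0.08) and, by less, IL-4/IL-13 (-0.26 ± 0.08). Lta4h, the leukotriene A hydrolase gene, fell under IFN-gamma/LPS (-2.19), the combined treatment (-1.90) and IL-4/IL-13 (-0.54). Hpgds, the prostaglandin D synthase gene of blood cells, fell under IFN-gamma/LPS (-1.99), the combined treatment (-2.46) and IL-4/IL-13 (-1.96). Tbxas1, the thromboxane synthase gene, fell under IFN-gamma/LPS (-1.23) and the combined treatment (-0.98) and rose under IL-4/IL-13 (0.59).

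Downstream of phospholipase C, 11 of 37 measured genes of inositol trisphosphate, calcium and diacylglycerol signalling rose and 19 fell under IFN-gamma/LPS, where 23.6% of all named genes were higher and 28.4% lower. The counts were 5 and 10 under IL-4/IL-13, and 8 and 16 under LPS/IL-4/IL-13. The medians of this list were -0.32, -0.11 and -0.22, against 0.10, 0.07 and 0.09 for all named genes, and 29 of its 37 genes lay above the median gene. Dgka, a diacylglycerol kinase gene whose product turns diacylglycerol into phosphatidic acid, rose under IFN-gamma/LPS (2.48) and LPS/IL-4/IL-13 (2.75). Dgkh, another kinase gene of that family, rose under IFN-gamma/LPS (2.29) and LPS/IL-4/IL-13 (1.84) and fell under IL-4/IL-13 (-0.94). Dgkz, a further gene of that family, went the other way and fell under IFN-gamma/LPS (-2.41), LPS/IL-4/IL-13 (-1.73) and IL-4/IL-13 (-0.78). Inpp5d, the gene of the inositol phosphatase SHIP, fell under IFN-gamma/LPS (-3.04), the combined treatment (-2.48) and, by less, IL-4/IL-13 (-0.53). Prkch, the gene of protein kinase C eta, which diacylglycerol activates, fell under IFN-gamma/LPS (-3.00) and LPS/IL-4/IL-13 (-2.73). Under IL-4/IL-13 the largest increases in the list were Inpp5a (0.90) and Rasgrp4 (0.76), both of which fell under IFN-gamma/LPS (-1.48 and -0.93).

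Among 31 measured genes that handle phosphatidic acid and lysophospholipids, 7 rose and 19 fell under IFN-gamma/LPS, 4 rose and 8 fell under IL-4/IL-13, and 7 rose and 16 fell under LPS/IL-4/IL-13. The medians were -0.48, 0.01 and -0.40, against 0.10, 0.07 and 0.09 for all named genes. Of the 31 genes 26 lay above the median gene, and 43.9%, 19.2% and 38.9% of all bright genes fell in these comparisons. Lpar1, a receptor gene for lysophosphatidic acid, rose by 4.62 under IFN-gamma/LPS and by 3.92 under LPS/IL-4/IL-13. Lpar6, another receptor gene for that lipid, fell under IFN-gamma/LPS (-3.85) and the combined treatment (-3.79), and under IL-4/IL-13 (-1.64). Plpp1, a lipid phosphate phosphatase gene, rose under IFN-gamma/LPS (3.34) and LPS/IL-4/IL-13 (1.69). Its relative Plpp3 rose under IFN-gamma/LPS (3.02), the combined treatment (2.80) and, by less, IL-4/IL-13 (0.61). Lpin1, a phosphatidic acid phosphatase gene, fell under IFN-gamma/LPS (-2.96) and LPS/IL-4/IL-13 (-3.06). Mboat2 (1.58) and Agpat1 (0.98), acyltransferase genes, rose under IL-4/IL-13. Lpin2, a relative of Lpin1, fell under IFN-gamma/LPS (-0.92), the combined treatment (-1.68) and IL-4/IL-13 (-1.87).

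Of 20 other lipase-type enzymes, receptors and regulators, 8 rose and 7 fell under IFN-gamma/LPS, 3 rose and 6 fell under IL-4/IL-13, and 6 rose and 7 fell under LPS/IL-4/IL-13, with medians of 0.13, 0.09 and 0.07. Pla2r1, which encodes a receptor for secreted phospholipase A2, rose under IFN-gamma/LPS (1.37) and LPS/IL-4/IL-13 (1.04). Abhd16a, a phosphatidylserine lipase gene, rose under IFN-gamma/LPS (1.86), the combined treatment (1.14) and IL-4/IL-13 (0.42). Pnpla7, a lysophospholipase gene, fell under IFN-gamma/LPS (-2.31) and the combined treatment (-2.48), and under IL-4/IL-13 (-0.56). Of 18 upstream regulators of phospholipases C and D, 5 rose and 7 fell under IFN-gamma/LPS, 3 rose and 6 fell under IL-4/IL-13, and 7 rose and 7 fell under LPS/IL-4/IL-13, with medians of -0.07, -0.08 and -0.01. Of these regulators 17 lay above the median gene, and 70.3%, 29.8% and 63.7% of all bright genes were called in these comparisons. The adaptor genes Lat2 and Blnk, whose products link immune receptors to phospholipase C gamma, fell under IFN-gamma/LPS (-1.75 and -1.52), the combined treatment (-0.99 and -1.02) and IL-4/IL-13 (-0.61 and -0.68). Syk, the kinase gene upstream of these adaptors, fell under IL-4/IL-13 (-1.20). Gna15, a G protein alpha subunit gene of the Gq family, whose members activate phospholipase C beta, rose under IL-4/IL-13 (0.96) and the combined treatment (1.01). In the same list Vav3 rose under IFN-gamma/LPS (0.50) and the combined treatment (1.39) and fell under IL-4/IL-13 (-0.82). Rala also rose under IFN-gamma/LPS (0.69) and the combined treatment (0.80) and fell under IL-4/IL-13 (-0.40). Arf6 rose under IFN-gamma/LPS (0.70), the combined treatment (0.67) and IL-4/IL-13 (0.36).

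**Figure D4:**
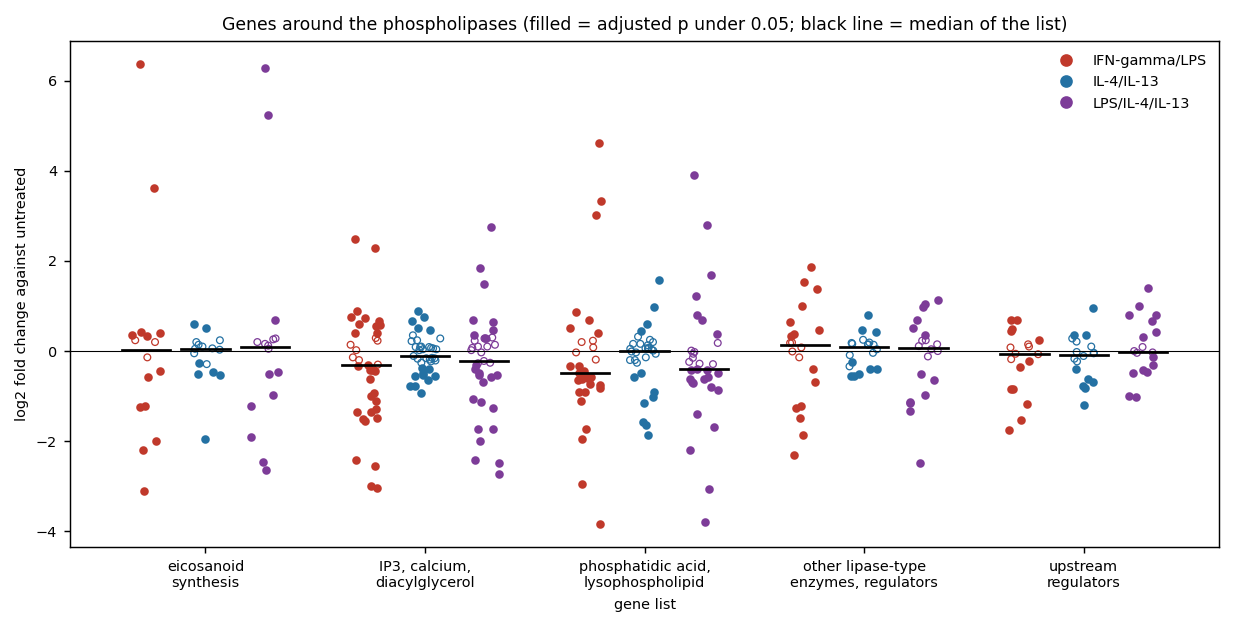
Log2 fold change against untreated cells (y axis) of the genes of 5 lists around the phospholipases (x axis), by treatment, filled where limma's adjusted p was under 0.05, with a black line at each list's median. Eicosanoid genes spread from -3.10 for Hpgd to 6.38 for Ptgs2, both under IFN-gamma/LPS.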

How the data were processed

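The authors deposited a table of probe set values for the 8 arrays, which the labels name as a MAS5 signal. The deposited values were used as log2 signal, a scale read from the values. The authors' normalization is not given in the sources used here. Per the labels' protocols, total RNA with an integrity number above 9 was labelled with biotin. Of 35556 probe sets, 21789 had 1 symbol in the platform annotation, 1621 had several and 12146 had none. Groups came from the sample titles. The limma package (version 3.58.1, run in R 4.3.3) fitted the 4 groups jointly over all 8 arrays and 19938 named genes (eBayes with a mean-variance trend, 4 residual and 7.55 prior degrees of freedom), with Benjamini-Hochberg adjustment within each of 6 comparisons. The script was tested on simulated data. Members and gene lists were chosen with earlier results of these data known. Given on every array were members called at 2-fold or more with groups that did not overlap, and 3 more members chosen by name (Pla2g6, Pla2g7 and Pld3), 13 in all; in each list the 2 called genes with the largest rise and fall could be named. Values on every array for Pla2g4c, Pla2g12a and Plcb3 were added after they were seen, as was the choice among the genes of each list. Each member result was recomputed without each array in turn, after median centring or quantile normalization, and for bright genes alone. It was also recomputed with replicate number as a block, with averaged probe sets and with other thresholds, variance models and sample sets. Results for the genes of the lists and for the cell type markers were not recomputed in these ways. Probe sets with several symbols entered no test.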

Additional observations from a re-analysis of the deposited data

Results flagged for a closer look

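Pla2g15 and Plcl2 stood out because their changes against untreated cells had opposite signs between treatments, and the difference itself passed limma's test. For Pla2g15 the difference of IFN-gamma/LPS from IL-4/IL-13 was -2.31 on the log2 scale, and that of LPS/IL-4/IL-13 from IL-4/IL-13 was -1.68. For Plcl2 the same differences were 2.36 and 1.58. A probe set shared by Gm28042, Jmjd7 and Pla2g4b, which entered no comparison because it carries several symbols, had means of 6.16 under IFN-gamma/LPS, 6.09 under IL-4/IL-13, 6.23 under LPS/IL-4/IL-13 and 5.89 in untreated cells. It stood 0.27, 0.20 and 0.34 above untreated in these treatments. These differences were not tested, and the probe set does not tell the 3 genes apart.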

How the results depend on the processing

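None of the 98 called member results changed direction under the 17 alternatives, of which the filter on dim genes leaves out the dim members. Many alternatives could not change a direction. The thresholds, the filter, the variance model, the fit of the arrays compared and the replicate block leave each log2 change as it was. So does leaving out an array of a group not compared, and averaging probe sets alters Pld2 alone. The counts of called members were 20, 15, 20, 9, 14 and 20, first for the treatments with IFN-gamma/LPS, with IL-4/IL-13, and with the combination against untreated cells, then for the combined treatment relative to IFN-gamma/LPS and to IL-4/IL-13, and last for IFN-gamma/LPS relative to IL-4/IL-13. With a fold of at least 2 they were 9, 1, 7, 1, 4 and 6. At an adjusted p under 0.01 the IL-4/IL-13 count against untreated was 9. Leaving out 1 array at a time gave 16 to 20, 9 to 15, 18 to 20, 6 to 9, 13 to 14 and 16 to 20, with the IL-4/IL-13 count at 9 without untreated array 1. Of the 98 called member results, 26 were lost without at least 1 array, and 72 were kept in every such fit. With the replicate number as a block the counts were 20, 14, 21, 9, 14 and 20. Same-numbered arrays correlated at -0.358 to 0.217 in their deviations from group means. With 2 arrays per group, these values cannot decide whether same-numbered arrays shared a culture or day. The number of arrays and the unstated normalization limit the smaller changes.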
